A study of Mus musculus with 8 samples.

Results

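The genes described here are 9 transcription factors that act between the epiblast and the early nervous system: Otx1, Otx2, Zic1, Zic2, Zic4, Zic5, Pou3f1, Pou3f2 and Pou3f3. They were taken by name out of 21900 protein-coding genes, and all 9 were matched in the RefSeq table of GRCm38.p6, the assembly behind mm10. CUT&RUN, in which an antibody directs micrococcal nuclease to the sites of a chromatin protein, had been done in C57BL/6 mouse embryonic stem cells kept with LIF, the GSK3 inhibitor CHIR99021 and the MEK inhibitor PD0325901. Rabbit antibodies to METTL14 were used on cells carrying the labels Mettl3 Control or Mettl3 CKO. Rabbit antibodies to METTL3 were used on the Mettl14 Control or Mettl14 CKO cells, and each of the 4 groups had 2 libraries. The labels do not spell out CKO, give neither the way the cells were made nor the number of cultures, so any spread between libraries, and any p-value based on it, may be technical. The peak lists do not show whether Mettl3 or Mettl14 was lost, and they do not measure expression, so neither the genotype nor the cell type was checked with them. The METTL14 lists held 3129 and 3546 peaks in control and 3922 and 1439 peaks in CKO cells, and the METTL3 lists 353, 341, 242 and 344. The read depth behind the lists is unknown, and a missing peak means only that signal did not pass the authors' threshold.

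METTL3 and METTL14 form the core of the complex that writes N6-methyladenosine on RNA. OTX2 helps naive embryonic stem cells pass to the primed state and later specifies the anterior neural plate, and OTX1 acts in the developing cortex. The ZIC proteins are zinc finger factors of the neural plate, the dorsal brain and the cerebellum. The POU3F proteins are POU domain factors of the late epiblast (POU3F1, also called OCT6) and of cortical neurons (POU3F2 and POU3F3, also called BRN2 and BRN1).

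METTL14 peaks were found at 8 of the 9 genes, and METTL3 peaks at none. Of all protein-coding genes 79.2% had no METTL14 peak in any library. Only 1.53% had a METTL3 peak in at least 1 library, so none of 9 is near that background. A peak was assigned to a gene when it overlapped the gene or the 2 kb on either side. Over the 4 METTL14 libraries 54 peaks lay at the genes, and 28 of them belonged to Otx1 and Otx2. The Zic genes had 12 and the Pou3f genes 14. Zic5 had no peak, and Pou3f1 had 1 in a single library. The peaks merged into 30 separate regions, of which 2 were called in all 4 METTL14 libraries: one beside Otx1 and one upstream of Pou3f2. Over the whole lists 468 of 8089 merged regions were called in all 4, so 2 of 30 is near the background.

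The promoters of Pou3f2 and Pou3f3 are shown because METTL14 peaks reached into them. The RefSeq promoter table (GRCm38.p6) gives windows from 250 bases before to 50 bases after a transcription start, and it held 9 windows for 6 of the genes: Otx2 (4 windows), Zic1, Zic4, Zic5, Pou3f2 and Pou3f3. Otx1, Zic2 and Pou3f1 are named only. In both sequences capitals mark bases covered by a METTL14 peak of at least 1 library, and the reading is 5′ to 3′ along the gene. The Pou3f2 window is chr4:22488317-22488616 on the minus strand, with 98 bases covered. The Pou3f3 window is chr1:42695518-42695817 on the plus strand, with 119 bases covered.
Pou3f2: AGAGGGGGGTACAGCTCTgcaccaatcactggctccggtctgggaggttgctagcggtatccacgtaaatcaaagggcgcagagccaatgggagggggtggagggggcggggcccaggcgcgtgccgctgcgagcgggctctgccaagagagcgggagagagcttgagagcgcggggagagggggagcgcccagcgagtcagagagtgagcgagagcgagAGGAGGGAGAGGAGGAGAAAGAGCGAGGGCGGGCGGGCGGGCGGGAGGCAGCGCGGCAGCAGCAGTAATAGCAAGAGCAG
Pou3f3: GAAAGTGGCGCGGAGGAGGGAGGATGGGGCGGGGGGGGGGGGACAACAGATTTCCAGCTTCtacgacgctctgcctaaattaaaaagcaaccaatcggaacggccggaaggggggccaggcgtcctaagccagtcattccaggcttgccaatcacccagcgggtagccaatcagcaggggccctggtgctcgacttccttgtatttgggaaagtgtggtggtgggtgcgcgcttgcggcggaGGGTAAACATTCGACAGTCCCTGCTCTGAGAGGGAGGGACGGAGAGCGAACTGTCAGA
In both windows the covered bases were the 2 ends, around the transcription start and at the far upstream edge, and the middle of the window was not covered. Each of the 4 METTL14 libraries had a peak reaching into each window.

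The remaining 7 windows, at Otx2, Zic1, Zic4 and Zic5, were free of METTL14 peaks. The share of all promoter windows reached by a METTL14 peak is not given, so these counts have no background beside them. At Otx2, 2 peaks lay close to an annotated start inside the gene, though outside its window. Their centres were 150 bp (control replicate 1) and 227 bp (CKO replicate 2) from that start. The window of Zic1 (chr9:91365719-91366018, minus strand) and one of the 4 Otx2 windows (chr14:48667459-48667758, minus strand) are shown for comparison. Here capitals mark the pentamer CCAAT, searched on both strands, so that ATTGG is a match on the other strand; the motif was chosen after the sequences were seen.
Zic1: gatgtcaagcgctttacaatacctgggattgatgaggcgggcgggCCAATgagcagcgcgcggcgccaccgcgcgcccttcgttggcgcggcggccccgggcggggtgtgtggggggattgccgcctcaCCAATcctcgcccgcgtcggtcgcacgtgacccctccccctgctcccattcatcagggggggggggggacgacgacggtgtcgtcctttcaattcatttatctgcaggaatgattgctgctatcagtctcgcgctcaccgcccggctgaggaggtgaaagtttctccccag
Otx2: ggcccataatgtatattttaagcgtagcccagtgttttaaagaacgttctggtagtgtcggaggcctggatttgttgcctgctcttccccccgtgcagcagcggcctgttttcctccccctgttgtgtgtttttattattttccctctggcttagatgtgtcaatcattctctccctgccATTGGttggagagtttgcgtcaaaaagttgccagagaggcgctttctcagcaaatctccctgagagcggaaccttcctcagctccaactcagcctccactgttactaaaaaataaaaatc
The pentamer occurred 2 times at Zic1, 1 time in this Otx2 window, 2 times at Pou3f2 and 3 times at Pou3f3, and not in the other 3 Otx2 windows or at Zic4 and Zic5. Of all 32851 promoter windows, 37.4% held it, and 11.7% held it 2 times or more. No base of a CCAAT match at Pou3f2 or Pou3f3 lay in a METTL14 peak. The GC content was 67.7% at Pou3f2, 65.3% at Zic1, 62.7% at Zic5 and 60.3% at Pou3f3, above the median of 52.7% over all windows. It was 46.0% at Zic4 and 41.7% to 53.7% in the Otx2 windows. The windows with peaks and those without therefore overlapped in GC content.

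In the Otx family Otx2 carried the most peaks of the 9 genes. Otx2 (chr14:48656781-48667644, minus strand) had 5 and 4 METTL14 peaks in control cells and 3 and 6 in CKO cells. The 2 groups overlapped, and the most peaks came from CKO replicate 2, the shortest METTL14 list. Of the 18 peaks, 11 lay inside the gene, within 2345 bp (chr14:48664808-48667152) toward its 5′ end. Inside the gene the count was 3 and 2 in control and 2 and 4 in CKO libraries. Only 0.0502% of protein-coding genes had as many METTL14 peaks over the 4 libraries, and 79.2% had none.

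The Otx2 peaks fell into 9 separate regions, inside the gene, upstream of it and beyond its 3′ end. Both control libraries called a region in the gene (chr14:48666276-48666459), and CKO replicate 2 also had a peak there, at 48666311 to 48666459, the same bases as control replicate 2. CKO replicate 1 had its nearest peaks at 48666556 to 48666704 and 48667004 to 48667152. Both control libraries and CKO replicate 2 called the upstream region (chr14:48668892-48669185), 102 bp short of the annotated start coordinate of Otx2os1, the lncRNA gene next to Otx2. CKO replicate 1 had no peak at that place. Beyond the 3′ end the control peaks sat at 48654877 to 48655025 and 48654876 to 48655024, 1 bp apart, and the CKO peaks at 48655137 to 48655285 and 48655240 to 48655388. The control region and the CKO region were separated by 111 bp, so every library had a peak there but no base was shared between genotypes. The 2 CKO peaks were also offset from each other, and a difference in place between genotypes was not tested.

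Otx1 was the only one of the 9 genes with fewer peaks in both CKO libraries than in both control libraries. Otx1 (chr11:21994764-22001651) had 3 and 4 METTL14 peaks in control cells and 2 and 1 in Mettl3 CKO cells, a mean of 3.5 ± 0.707 (SD, n = 2) against 1.5 ± 0.707 (SD, n = 2). The groups did not overlap. The exact permutation test of these 4 libraries gave p = 0.333 (two-sided), the smallest that 2 against 2 libraries allow, and 1.03% of all protein-coding genes had fewer peaks in both CKO libraries. A gene with more peaks in both CKO libraries was not among the 9, where 0.521% of all genes had that pattern. The 79.2% of genes with no METTL14 peak can show neither pattern, so both shares are higher among genes with peaks. Whether Otx1 stands apart from genes with peaks was not tested. Per 1000 peaks of each list the Otx1 numbers were also lower in CKO cells, with 0.959 and 1.13 in control and 0.510 and 0.695 in CKO libraries. By that measure Zic2 was higher in both CKO libraries, with 0.320 and 0.282 in control and 0.510 and 0.695 in CKO. Its exact permutation test likewise gave p = 0.333 (two-sided), from 1 and 1 peaks in control and 2 and 1 in CKO libraries.

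The Otx1 region called in all 4 METTL14 libraries (chr11:21994048-21994263) lay below the gene's lower coordinate, 501 or 568 bp away. Control replicate 2 and both CKO libraries gave it exactly the same bases, 21994115 to 21994263. A second region, at the other end of the gene (chr11:22001486-22001650), was called in both control libraries and in CKO replicate 1. The remaining 3 Otx1 regions were each called in 1 control library: chr11:21997248-21997396 and chr11:22003604-22003752 in replicate 2, and chr11:22000283-22000431, which also overlaps the lncRNA gene Gm32517, in replicate 1.

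**Figure D1:**
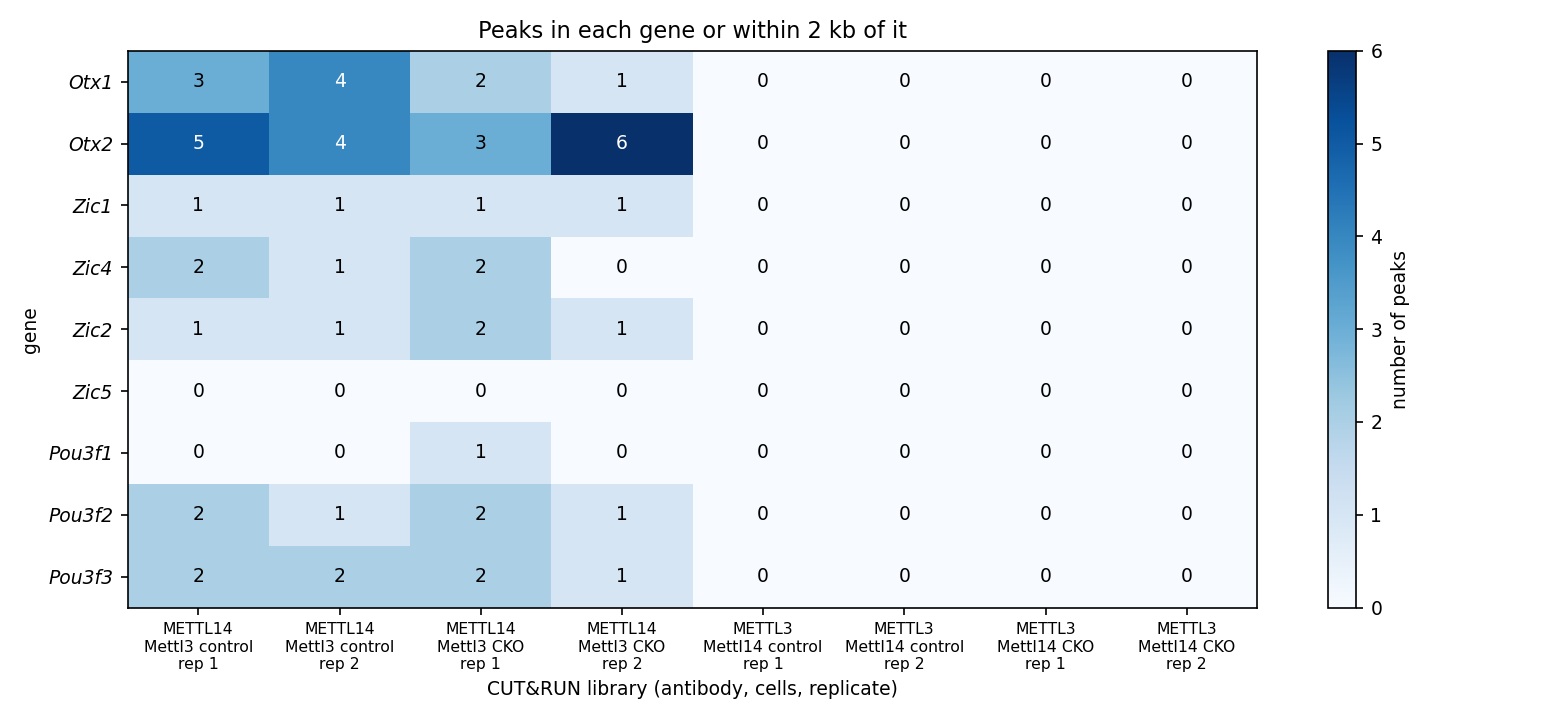
Number of peaks in each gene or within 2 kb of it (rows) in each of the 8 libraries (columns), printed in the cells and shown by shade. Otx2 has 3 to 6 METTL14 peaks in each library, Zic5 has none, and the 4 METTL3 columns are 0 throughout.

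The Zic genes lie in 2 pairs, and their peaks were fewer. Zic1 and Zic4 are neighbours whose annotated spans share 138 bp, and some of their peaks fell into both windows. Zic1 (chr9:91358058-91365768, minus strand) had 1 METTL14 peak in each of the 4 libraries, yet at different places. Control replicate 1 and CKO replicate 1 had it near the start, at 91365300 to 91365448 and 91365264 to 91365412. Control replicate 2 and CKO replicate 2 had it inside the gene, at 91361974 to 91362122 and 91361948 to 91362096. The genotypes did not differ in number, and the place was shared between libraries of unlike genotype, so no Zic1 region was called in both libraries of a group. Zic4 (chr9:91365631-91389351, plus strand) had 2 and 1 peaks in control and 2 and 0 in CKO cells. The peaks near the Zic1 start were counted for it too, and its own 3 peaks, between 91379069 and 91381795, were each called in 1 library and did not overlap one another.

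Zic2 and Zic5 lie on chromosome 14 with 9725 bp between them. Zic2 (chr14:122475384-122480328) had 1 and 1 METTL14 peaks in control and 2 and 1 in CKO cells, all outside the annotated gene. Control replicates 1 and 2 and CKO replicate 1 called chr14:122474226-122474517, inside the lncRNA gene 2610035F20Rik. CKO replicate 2 instead had its peak at chr14:122475182-122475330, 54 bp below the Zic2 boundary and likewise overlapping 2610035F20Rik. The other peak of CKO replicate 1 lay at chr14:122480412-122480560, beyond the opposite end. Zic5 (chr14:122459160-122465658, minus strand), a factor of neural crest and dorsal neural tube, had no peak in any library. The nearest METTL14 peak, in CKO replicate 2 at chr14:122468229-122468377, was 2571 bp away, just outside the 2 kb limit.

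**Figure D2:**
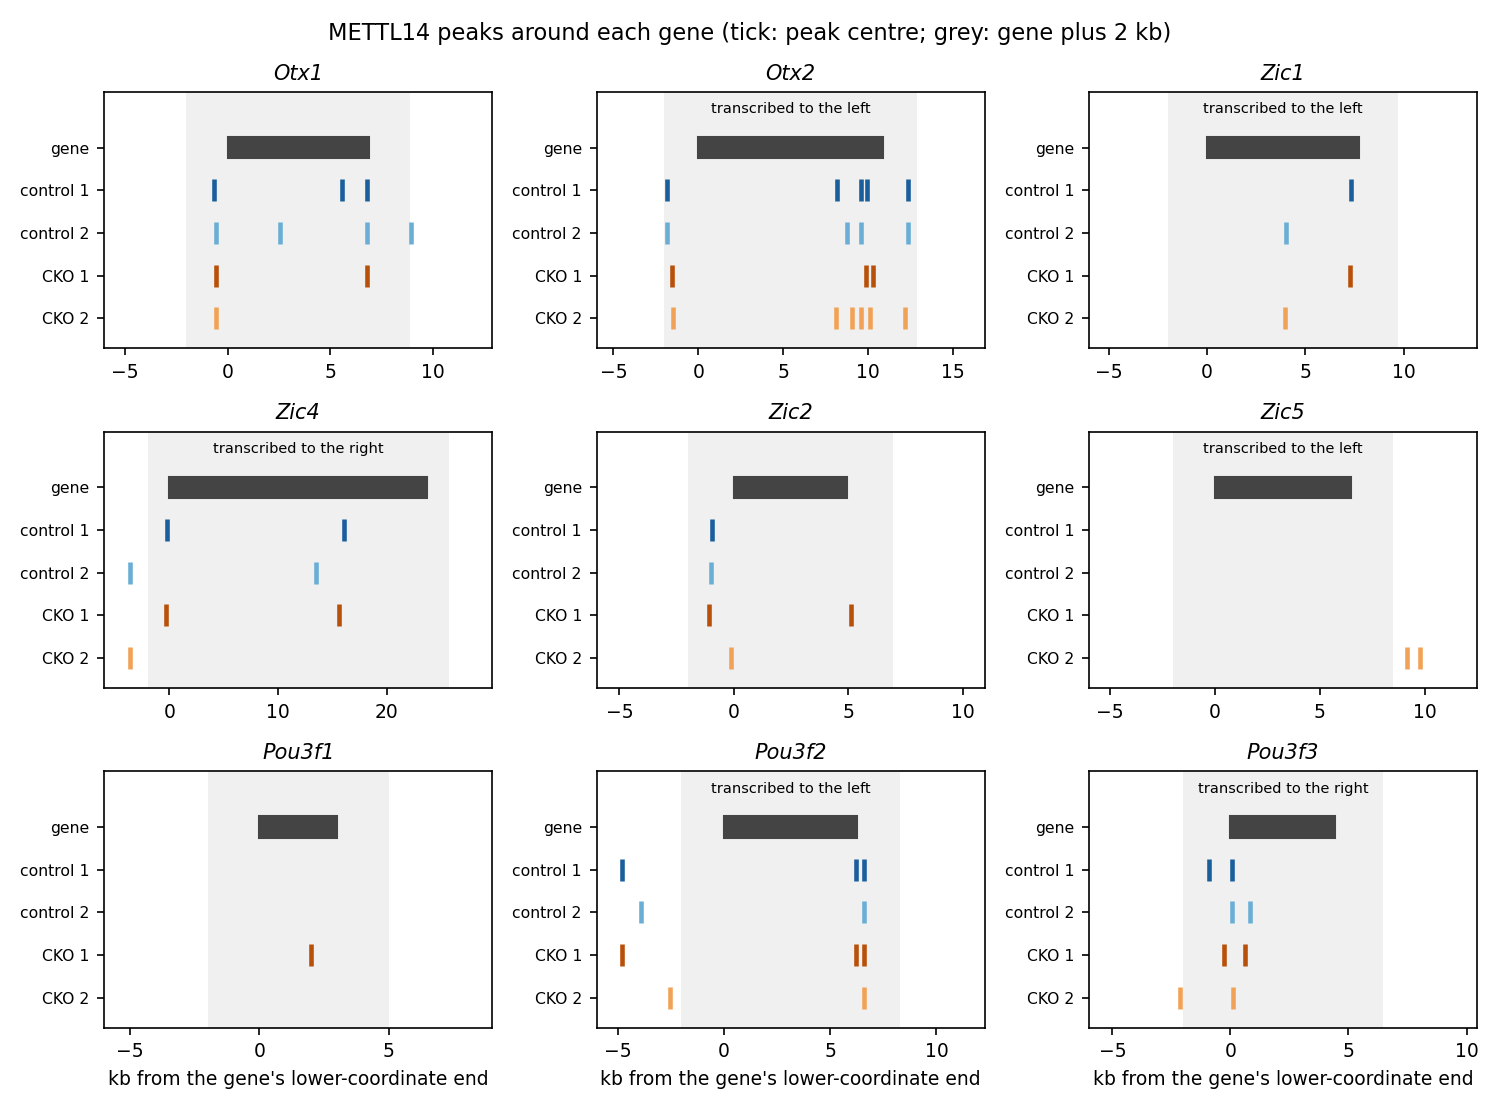
Centres of METTL14 peaks (ticks) in the 2 control (blue) and 2 Mettl3 CKO (orange) libraries, against distance in kb from the lower-coordinate end of each gene; the bar is the annotated gene and the grey band adds 2 kb. At Otx2 11 of the 18 peaks lie inside the gene near its start on the right. Within 2 kb of Pou3f2 and Pou3f3 the peaks gather at the start. Outside the grey band, each METTL14 library has a further peak beyond the 3′ end of Pou3f2.

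Among the Pou3f genes, the 2 cortical factors had peaks at their starts and Pou3f1 hardly any. Pou3f2 (chr4:22482095-22488366, minus strand) had 2 and 1 METTL14 peaks in control and 2 and 1 in CKO cells. The region upstream of the gene (chr4:22488599-22488757) was called in all 4 libraries, with peak starts at 22488601, 22488600, 22488609 and 22488599, and its centre lay at -307 to -317 bp from the transcription start. It covers the first capitals of the Pou3f2 sequence above. The second region (chr4:22488231-22488396), over the start itself, was called in replicate 1 of both genotypes and in neither replicate 2. Control and CKO could not be told apart by number at Pou3f2.

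Pou3f3 (chr1:42695768-42700210, plus strand) had 2 and 2 METTL14 peaks in control and 2 and 1 in CKO cells. Both control libraries called the same bases over the start, chr1:42695760-42695908, and CKO replicate 2 a peak that starts further on, at 42695796 to 42695944. CKO replicate 1 had none there, and its 2 peaks lay on either side, at 42695430 to 42695578 and 42696307 to 42696455. Each control library had 1 further peak, at 42694782 to 42694930 in replicate 1 and at 42696511 to 42696659 in replicate 2. The lncRNA gene Gm46091 spans all of these places, so they cannot be assigned to Pou3f3 alone. The peak at 42694782 to 42694930 also overlaps the lncRNA gene Pantr1. Pou3f1 (chr4:124657646-124660655) had 1 METTL14 peak, in CKO replicate 1 at chr4:124659585-124659733. It stood at place 2850 of 3922 in that list.

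In control cells 5 of the 9 genes had a region called in both libraries: Otx1, Otx2, Zic2, Pou3f2 and Pou3f3. Of all protein-coding genes 3.82% were called in this way. Otx1 and Otx2 had 2 or more such regions, as did 0.269% of all genes, and Otx2 had 3, as did 0.0685% with 3 or more. In Mettl3 CKO cells 3 of the 9 were called, Otx1, Otx2 and Pou3f2, against 3.15% of all genes. Without the flanks, with regions required to touch the gene itself, 3 genes were called in control (Otx1, Otx2 and Pou3f3) and 0 in CKO cells, against 2.26% and 1.79% of all genes, so that 0 of 9 is near the background. The CKO call at Otx2 was also lost with a 1 kb window and with a 50% reciprocal overlap. The windows of the 9 genes had a median length of 10499 bp, against 21146 bp for all protein-coding genes, and 1 of the 9 was longer than that median.

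In single libraries 6 to 8 of the 9 genes had a METTL14 peak. Control replicates 1 and 2 had a METTL14 peak at 7 of the 9 genes each, against 9.71% and 11.2% of all genes. CKO replicate 1 had peaks at 8 of 9 against 12.9%, and CKO replicate 2 at 6 of 9 against 4.91%. A peak in each of the 4 METTL14 libraries was found at 6 of the 9 genes, Otx1, Otx2, Zic1, Zic2, Pou3f2 and Pou3f3, and at 2.53% of all genes. The peaks at the 9 genes made up 0.479% and 0.395% of the control lists and 0.357% and 0.764% of the CKO lists. These shares describe genes that were proposed with results of these lists known, and no test of the group was made.

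**Figure D3:**
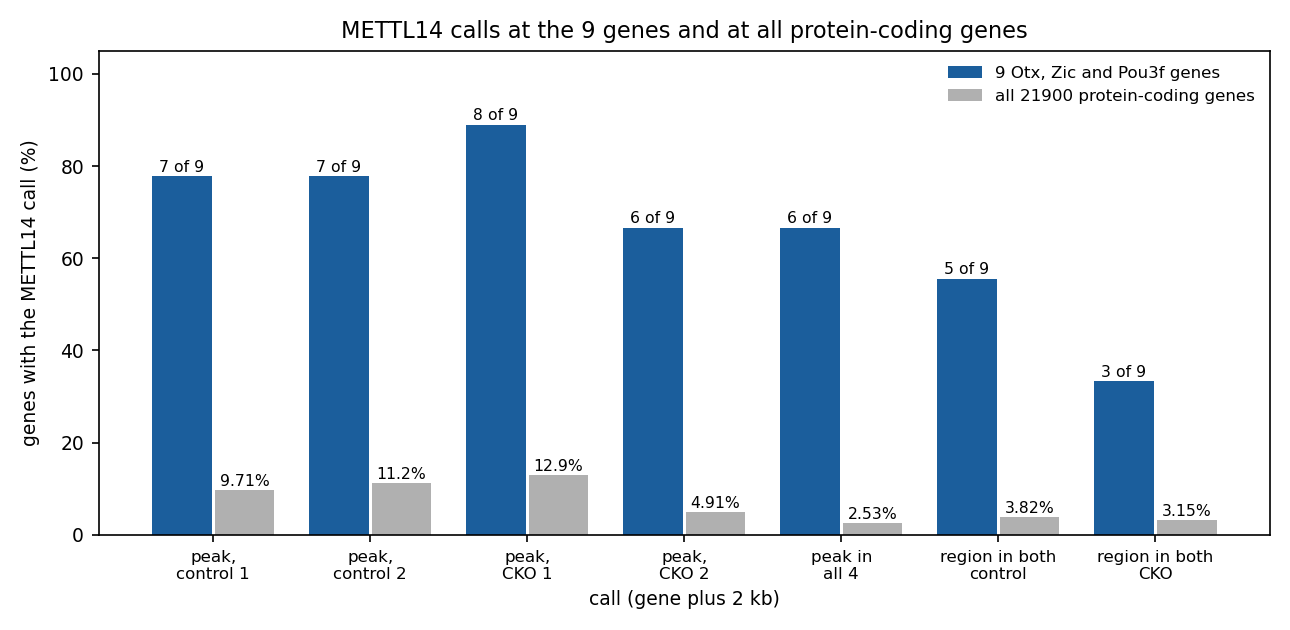
Percent of the 9 genes (blue) and of all protein-coding genes (grey) with a METTL14 peak in each library, in all 4 libraries, or with a region called in both libraries of a genotype. Between 3 and 8 of the 9 genes have each call, against 2.53% to 12.9% of all genes.

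Between Mettl3 control and CKO cells the number of METTL14 peaks at single genes could not be shown to differ. Means were equal at Otx2 (4.5 ± 0.707 in control and 4.5 ± 2.12 in CKO cells, SD, n = 2), at Zic1 (1 in every METTL14 library) and at Pou3f2 (1.5 ± 0.707 in both). They were lower in CKO cells by 0.5 peaks at Zic4 and Pou3f3, and higher by 0.5 at Zic2 and Pou3f1. The exact permutation p was 1.00 for each of these genes (two-sided). With 4546 genes tested, Benjamini-Hochberg adjustment left 0 genes called and the smallest adjusted p at 1.00 by the exact permutation test, and 0 genes were below 0.05 unadjusted, which 2 against 2 libraries cannot reach. The equal means at Otx2 hid a wide spread: CKO cells had 1.50 peaks more without CKO replicate 1, and the difference was -1.50 without CKO replicate 2. Per 1000 peaks of each list, Otx2 had 1.60 and 1.13 in control and 0.765 and 4.17 in CKO libraries. Single libraries also set the small differences. Without CKO replicate 2 the difference was 0 at Pou3f3, and at Zic4 CKO cells had 0.5 peaks more. Without CKO replicate 1 the difference was 0 at Zic2 and at Pou3f1.

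No METTL3 library had a peak at any of the 9 genes. Of all protein-coding genes 1.53% had a peak in at least 1 METTL3 library, and 0.151% and 0.164% had a region called in both Mettl14 control and both Mettl14 CKO libraries. At so low a background, 0 of 9 genes does not set them apart from other genes. The nearest METTL3 peak was 247219 bp from Pou3f1 and 1027111 bp from Otx2, and the distances ran up to 6680778 bp at Zic4. The 2 antibodies were used on differently labelled cells and gave lists of different length, so no difference between METTL14 and METTL3 was tested.

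Further METTL14 peaks lay around Pou3f2 and the Zic genes beyond 2 kb. Within 20 kb, a distance chosen after seeing the data, Pou3f2 had 5 and 3 peaks in control and 4 and 3 in CKO cells, 15 in all, where 0.416% of protein-coding genes had as many. They lay on both sides of the gene, and the outermost, at chr4:22498743-22498891 in control replicate 2, was 10377 bp from it. Otx2 had 5 and 5 in control and 3 and 6 in CKO cells, the addition being 1 peak inside Otx2os1 (chr14:48674287-48674435). Otx1 had no further peak within 20 kb. Between Zic5 and Zic2, 2 peaks of CKO replicate 2 lay outside annotated genes, at chr14:122468229-122468377 and chr14:122468863-122469011. The peaks at 2610035F20Rik, from both genotypes, lay between Zic5 and Zic2 too. Within 20 kb Zic5 had 1 and 1 peaks in control and 2 and 3 in CKO cells, 7 in all, where 2.31% of genes had as many. The same 7 peaks lay within 20 kb of Zic2, so they are not particular to Zic5. Pou3f1 stayed at 1 peak, a number that 32.5% of genes reached within 20 kb.

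**Figure D4:**
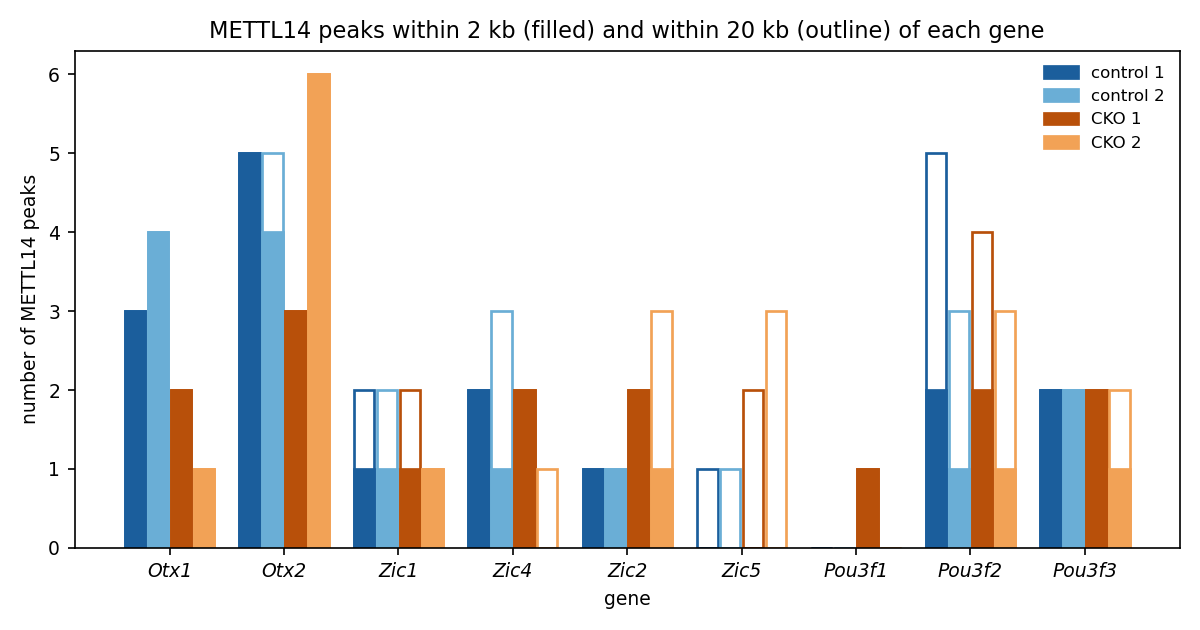
Number of METTL14 peaks within 2 kb (filled bars) and within 20 kb (outlines) of each gene in the 2 control and 2 Mettl3 CKO libraries. Pou3f2 gains most with distance, from 6 to 15 peaks over the 4 libraries, while Otx1 stays at 10 and Pou3f1 at 1.

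Other genes of the same transition were described with the same windows. The relatives Crx and Pou3f4 had no METTL14 peak in any library. Of 10 primed epiblast genes, 0 had a region called in both control libraries and 1 in both CKO libraries: Lef1, a transcription factor of Wnt signalling, with 2 and 0 peaks in control and 3 and 2 in CKO cells. Of all protein-coding genes 3.82% and 3.15% were called in control and CKO cells, so 0 of 10 is near the background and 1 of 10 rests on a single gene. Of 23 early neural genes, 5 were called in control cells and 4 in CKO cells. The control calls were Pax6 (3 and 4 control peaks, 3 and 2 CKO peaks), a regulator of eye and forebrain, Fezf1 (2 and 4, then 2 and 0), Neurog2 (2 and 2, then 2 and 0), a proneural factor, Gbx2, which opposes Otx2 at the boundary of midbrain and hindbrain, and Nes, the gene of the progenitor filament nestin. Gbx2 and Nes had 1 peak in each METTL14 library. Pax6, Gbx2 and Nes were called again in CKO cells, together with Six3. In single libraries 10 and 14 of the 23 had a peak in control and 15 and 6 in CKO cells, against 9.71%, 11.2%, 12.9% and 4.91% of all genes, and no METTL3 library had one.

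Markers of the labelled cells and of other cell types were counted in the same windows. Of 10 embryonic stem cell factors, 2 and 3 had a METTL14 peak in the control libraries and 5 and 3 in the CKO libraries, against 9.71%, 11.2%, 12.9% and 4.91% of all genes. In each METTL14 library 1 of the 6 fibroblast markers had a peak, though not the same marker in all 4. In both lists 0 genes had a region called in both libraries of a genotype, which is near the 3.82% and 3.15% of all genes. Of 4 primitive endoderm factors, 3 and 2 had a peak in control and 3 and 1 in CKO libraries, against the same shares of all genes. Sox17 was called in both genotypes, with 2 and 2 peaks in control and 2 and 1 in CKO cells. That is 1 of 4, against 3.82% and 3.15% of all genes, and it rests on a single gene. The protein-coding genes whose peak numbers over the 8 libraries were most like those of Otx2 were Pax7, Nr2f2, Hoxd11, Hoxd10 and Osr2, with summed absolute differences of 1, 3, 5, 6 and 6 peaks. Hoxd10 and Hoxd11 overlap as annotated, so a peak can count for both. Pax7 is far longer than Otx2, by 85608 bp, and had 5 and 4 peaks in control and 3 and 5 in CKO cells.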

How the data were processed

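METTL14 and METTL3 CUT&RUN peaks from 8 libraries of mouse embryonic stem cells were used, 2 in each of 4 groups. Per the submitters' processing notes, CASAVA, Trimmomatic 0.38, Bowtie2 2.4.1, SAMtools and HOMER were named, with no role or order, and mm10 was the build. The sources used here do not state the peak threshold, a background library or the read depth. The authors deposited a separate list for each library. The deposited score is 1 for every peak, so peaks carry no height and no counting interval could be given. Coordinates are printed counted from 1.

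The members and gene lists were chosen with earlier results of these data known. Genes, promoters and strands came from RefSeq tables of GRCm38.p6; exons were not analysed. Peaks were assigned to a gene plus 2 kb. Regions were merged peaks sharing or touching a base, called when both libraries of a group had a peak in them. Peak numbers per gene were compared by an exact permutation test of 4 libraries (two-sided), with Benjamini-Hochberg adjustment over all protein-coding genes with a peak. The named genes were the 9 members, up to 6 genes of each list called in METTL14 control, and the 5 genes with the smallest summed difference from the member with most peaks, ties going to the nearer gene length; Lef1, Six3, Crx and Pou3f4 were named after their values were seen, and 1 listed gene is not reported here. Python 3.11.15, numpy 2.4.6 and pandas 2.3.3 were used, and the counting and the test were tested on simulated data. Alternatives changed the window, the overlap, the list length and the libraries.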

Additional observations from a re-analysis of the deposited data

How the results depend on the processing

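Depth is unknown, so absent peaks set no limit on binding. With METTL14, the gene body alone left 3 called genes and 3 regions in control and 0 and 0 in CKO cells, in place of 5, 8, 3 and 3. Peaks of either library gave 21 regions in control, and 8 genes and 22 regions in CKO cells, and peaks within 500 bp gave 5 CKO regions. Leaving out 1 library, so that the other alone was used, gave 14 to 15 regions in control, and 6 to 8 genes and 11 to 14 regions in CKO cells. Windows of 1 kb and 5 kb, a 50% reciprocal overlap and lists of equal length kept these counts within 1.5 times, with Otx2 lost in CKO cells at 1 kb and at 50% overlap. The 4 METTL3 counts were 0 under each alternative. Of 81 values of the difference per gene, 2 changed sign: Pou3f3 per 1000 peaks (0.000837 higher in CKO) and Zic4, which ran from -1.50 to 0.500 with each library left out. The cause was not tested. Otx2, Zic1, Zic5 and Pou3f2, with a reported difference of 0, could not be counted as changing sign. The replicate block repeats the reported differences, and a difference that fell to 0 was not counted either. The 2 of 81 therefore do not measure how stable the differences were. With each library left out Otx2 ran from -1.50 to 1.50 and Pou3f2 from -0.500 to 0.500. The replicate block, with labels exchanged within a replicate number, called 0 members for METTL14 and 0 for METTL3, with a smallest possible exact p of 0.5. Same-numbered libraries did not deviate together in peak number over genes (correlation -0.01 for METTL14 and -0.07 for METTL3). This correlation covers numbers of peaks and not their places, so it cannot exclude pairing by replicate number. At Zic1 the places agreed between control and CKO libraries of the same number, and beyond the 3′ end of Otx2 they overlapped within genotype.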

Other observations

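The peaks at the Otx, Zic and Pou3f genes stood early in the METTL14 lists. Of the 54 peaks 45 were in the first 25% of their list, and the median place was 10.3% and 8.25% in the control libraries and 10.7% and 13.1% in the CKO libraries. For all peaks at protein-coding genes the median place was 48.2%, 48.9%, 50.1% and 53.1%. The earliest was the Otx2 peak of CKO replicate 1 at chr14:48666556-48666704, at 2.78% of its list, and the latest the lone Pou3f1 peak, at 72.7%. What orders the lists is not given in the sources used here.

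Regions at these genes were called in 1 METTL14 library in 53.3% of cases (16 of 30), and over the whole lists in 70.7% (5717 of 8089 merged regions).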
